A study of Arabidopsis thaliana with 29 samples.

Results

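Kanadi1 (KAN1, AT5G16560), Kanadi2 (KAN2, AT1G32240), Filamentous Flower (FIL, AT2G45190), Yabby2 (YAB2, AT1G08465), Yabby3 (YAB3, AT4G00180), Yabby5 (YAB5, AT2G26580), Asymmetric Leaves1 (AS1, AT2G37630) and Asymmetric Leaves2 (AS2, AT1G65620) help to set the upper and lower faces of cotyledons and leaves in Arabidopsis thaliana. They were listed by name, with earlier results of these data known, and they were 8 of the 33341 genes with total read counts. Of the 12448 genes with exonic parental values in the authors' deposited table, KAN1, KAN2, YAB3, YAB5 and AS1 (5 members) were listed, and 6 members were among the 7795 genes with intronic values. FIL and YAB2 had intronic values only, and parental values of AS2 were not analysed here.

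KANADI proteins are GARP-domain transcription factors of the abaxial, lower side, which is the outer side of a cotyledon primordium. YABBY proteins carry a zinc finger and a domain resembling a high-mobility-group box, and the 4 vegetative members studied here are expressed on the abaxial side of cotyledons and leaves, where they act with LEUNIG-type co-repressors in blade outgrowth. AS1, a MYB protein, and AS2, a LOB-domain protein, form a complex of the adaxial side that keeps class I KNOX genes off in leaves and cotyledons.

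Polyadenylated RNA was sequenced from hybrid embryos between the wild-type accessions Col-0 and Tsu-1 at 7 stages. These run from the zygote over the octant and globular stages, before cotyledons form, to the heart stage, when they arise, and on to the torpedo, bent and mature stages. CT below means a Col-0 mother and a Tsu-1 father, and TC means a Tsu-1 mother and a Col-0 father. Each stage and cross had 2 libraries labelled as biological replicates, except the CT zygote with 1, which gave 27 embryo libraries, and 2 libraries came from unfertilized Col-0 ovules, which are whole maternal organs. No group carried a mutation or a transgene, so each result is a pattern of wild-type hybrids. Embryos were dissected by hand, and a value is an average over all cells of the embryo, in which fewer cells of a type and less RNA per cell cannot be told apart.

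Library depth ran from 689780 reads (bent TC replicate 2) to 60410492 (zygote CT replicate 1), and the globular TC replicate 2 had 1486158 reads. Each CT replicate 1 from the globular to the mature stage had between 26771336 and 45343254 reads. Every other octant to mature library had at most 12865589. Depth was thus tied to cross and replicate number there, and its part in the cross differences was not tested. Levels are CPM (counts scaled to a common library total) after TMM scaling, which corrects for the composition of a library, and errors are SDs over libraries. Changes are log2 fold changes with standard errors (SE) from edgeR's quasi-likelihood test, with p-values adjusted over all genes tested (Benjamini-Hochberg, threshold 0.05). A list of 17 embryo patterning genes summed to between 725 and 1850 CPM in the zygote libraries and to between 1460 and 2070 CPM in the globular ones, but also to 833 and 1210 CPM in the ovules, so this list does not set embryos apart from ovules. A list of 13 seed coat genes, which mark the maternal tissue around the embryo, summed to between 3220 and 5080 CPM in zygotes, 1960 and 2670 in octants, 344 and 569 in globular embryos, 44.7 and 153 in heart embryos and 57.3 and 84.2 in torpedo embryos. No gene of that list was at 0 in all libraries of those stages. A list of 9 endosperm genes summed to at most 78.5 CPM in any library.

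The promoters of FIL, YAB3 and YAB5 are shown because these YABBY genes made the largest rise of the members at the first 3 steps between stages in turn, and because KAN1, a transcription factor among the members, has a known binding motif to look for in them. Whether KAN1 acts on these genes was not tested. The sequences are the 250 bases before the annotated start of each gene, from RefSeq's TAIR10.1 assembly, on the strand of the gene (minus for all of them), at chr2:18630780-18631029 for FIL, chr4:75577-75826 for YAB3 and chr2:11307011-11307260 for YAB5. Capitals mark GNATAA or GNATAT, the KAN1 motif, on either strand, where neighbouring matches may overlap.
FIL: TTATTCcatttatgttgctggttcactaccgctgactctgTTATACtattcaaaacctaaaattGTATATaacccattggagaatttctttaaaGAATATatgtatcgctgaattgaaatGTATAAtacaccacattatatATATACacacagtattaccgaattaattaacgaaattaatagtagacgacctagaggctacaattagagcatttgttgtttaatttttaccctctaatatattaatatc
YAB3: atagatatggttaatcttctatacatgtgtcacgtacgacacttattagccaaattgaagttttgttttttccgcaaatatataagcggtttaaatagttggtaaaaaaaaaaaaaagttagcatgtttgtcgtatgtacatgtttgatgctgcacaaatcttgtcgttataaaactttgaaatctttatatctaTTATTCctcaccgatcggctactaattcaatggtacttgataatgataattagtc
YAB5: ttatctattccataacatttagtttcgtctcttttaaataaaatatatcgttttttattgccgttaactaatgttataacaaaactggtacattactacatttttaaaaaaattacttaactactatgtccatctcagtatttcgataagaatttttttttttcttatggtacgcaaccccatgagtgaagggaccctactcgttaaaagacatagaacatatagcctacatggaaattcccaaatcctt
The FIL window held 6 matches, the YAB3 window 1 and the YAB5 window 0. At least 1 match was present in 76.0% of 27443 windows of the same length, with a median of 1, and 6 or more were present in 1.12%. KAN1 and AS2 had 2 matches each (44.7% of windows had as many), KAN2 and YAB2 had 1, and AS1 had 0. A second motif, the auxin response element TGTCTC, was in 10.9% of all windows and occurred once each upstream of YAB2 and AS1. A match is a run of letters and does not show binding.

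The members entered the embryo transcriptome at different stages. Between zygote and octant 3 of the 6 members tested rose (KAN2, FIL and AS1) and none fell, where 16.4% of all 20623 genes tested rose. Between octant and globular 4 of 7 rose (KAN1, KAN2, FIL and YAB5) and YAB2 fell, where 36.9% of 19600 genes were called in either direction. Between globular and heart 5 of 8 rose (FIL, YAB2, YAB3, YAB5 and AS1) and none fell, where 6.49% of 18932 genes rose. YAB3 alone rose between heart and torpedo, where 10.1% of genes rose, AS1 alone fell between torpedo and bent, where 22.4% of genes fell, and FIL, AS1 and AS2 fell between bent and mature, where 29.2% of genes fell. With 1 library left out the counts ran from 1 to 4 from zygote to octant, 5 to 6 from octant to globular and 3 to 5 from globular to heart. They ran from 0 to 3 from heart to torpedo, 1 to 3 from torpedo to bent and 3 to 4 from bent to mature. The count from heart to torpedo was 3 without heart TC replicate 1 and 2 without torpedo TC replicate 2. That from torpedo to bent was 3 without bent CT replicate 2 and 2 without torpedo CT replicate 1. The median change over the members tested was 1.38 on the log2 scale from zygote to octant, 1.39 from octant to globular and 1.62 from globular to heart, beside medians over all genes of -0.01, 0.02 and 0.02. The tested set changed between these steps with the read filter. YAB5 had at most 5 reads in any octant library and YAB3 at most 5 in any globular one, so each passed only through its later stage. YAB2 had at most 13 reads in any globular library, and KAN2 and FIL had at most 0.404 and 0.707 CPM in any zygote library. At steps with these stages they passed mainly through the other stage. The fold changes and p-values of these members there, given below, rest on low values and on genes that passed in this way. The medians and counts at these steps are thus descriptions and no test of the members as a set. The seed coat list, given above, was highest in zygotes and lower at each of these steps, and its part in the changes of the members was not tested.

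Composition scaling bears on the late steps. Without it the median of all genes moved to -0.87 from torpedo to bent and -0.95 from bent to mature, where 17.0% and 16.4% of calls were higher in place of 49.5% and 46.4%, and 6 members were called at each of these steps.

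**Figure D1:**
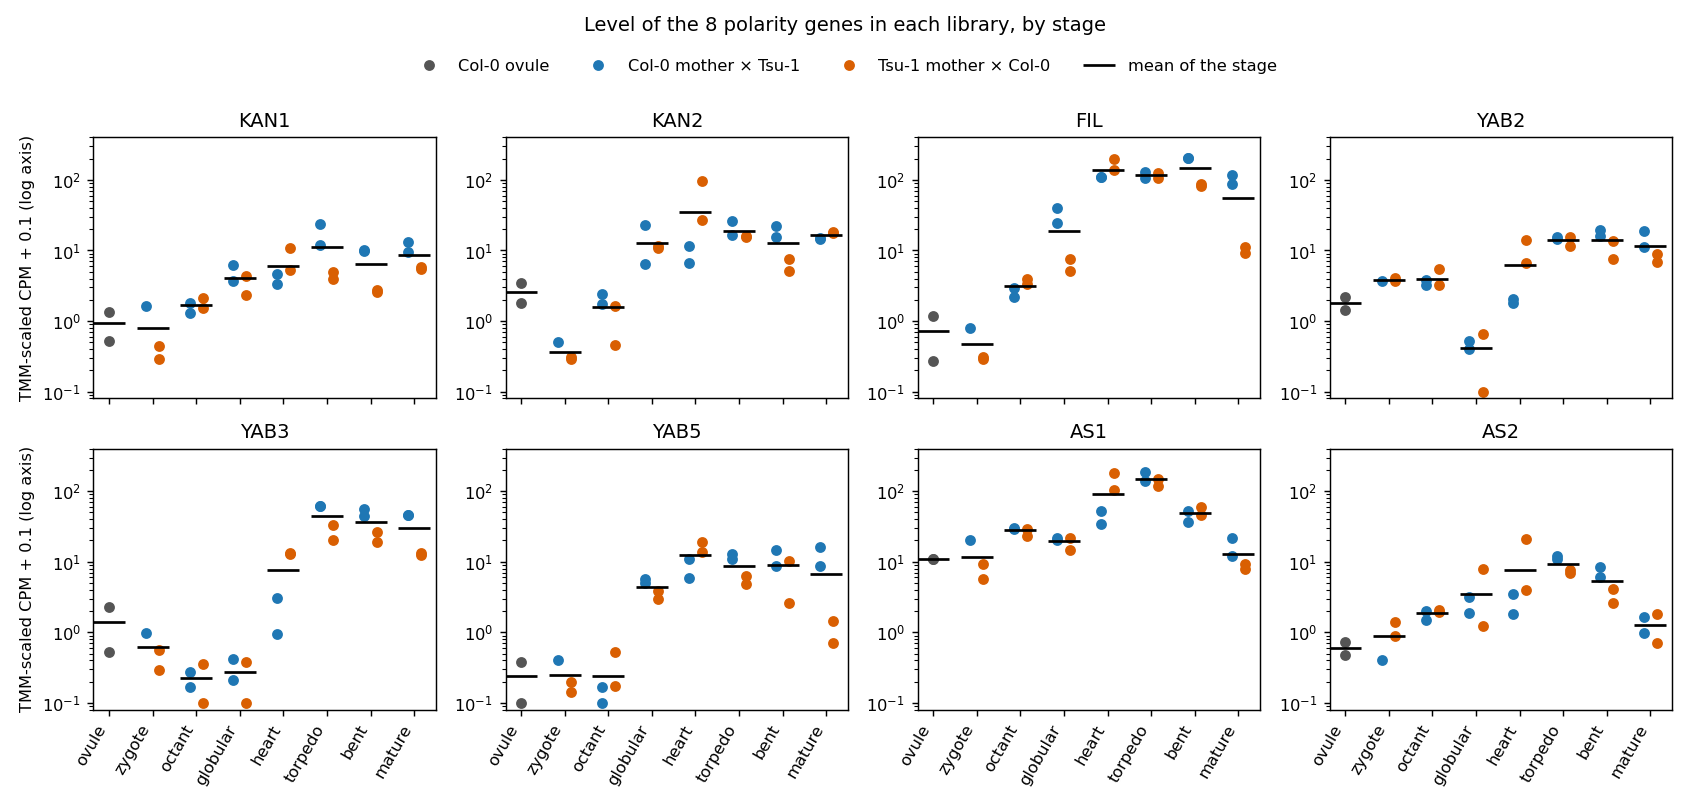
TMM-scaled CPM plus 0.1 on a log axis (vertical) by stage (horizontal) for each of the 8 genes. Each point is 1 library, coloured by ovule, CT or TC, and black bars are stage means. YAB2 is lowest in globular embryos, at 0.559 CPM or less, and YAB3 stays under 0.9 CPM in zygote, octant and globular embryos and reaches a mean of 44.0 CPM in torpedo embryos.

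The KANADI genes rose early. KAN2 was at 0.404, 0.211 and 0.194 CPM in the zygote libraries, at 1.65 and 2.33 (CT) and 0.362 and 1.52 (TC) in octants, and at 6.43 and 22.6 (CT) and 11.5 and 10.8 (TC) in globular embryos. Every globular library was above every octant library, and octant and zygote libraries overlapped. KAN2 rose by a log2 fold change of 2.23 ± 0.66 (SE; n = 3 and 4, adjusted p = 0.0351) to the octant and by 3.18 ± 0.48 (n = 4 and 4, adjusted p = 0.000536) to the globular stage. The first of these calls was lost with replicate numbers as a block (adjusted p = 0.0968) and without octant CT replicate 1, octant CT replicate 2, octant TC replicate 2, zygote TC replicate 1 or zygote TC replicate 2 (adjusted p from 0.0655 to 0.162).

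KAN1 was at 1.55, 0.338 and 0.194 CPM in zygotes, 1.21, 1.73, 1.45 and 2.03 in octants and 3.59, 6.05, 4.19 and 2.27 in globular embryos, in the order CT 1, CT 2, TC 1, TC 2 (zygote CT 1, TC 1, TC 2). Its zygote and octant values overlapped, and its globular values lay above all octant values. The step from octant to globular passed the test at 1.39 ± 0.33 (adjusted p = 0.00649), and that from zygote to octant did not at 1.33 (adjusted p = 0.163). From the globular stage on, neither KANADI gene passed the test at any step. Their mean levels were highest in torpedo embryos for KAN1 (10.9 CPM ± 8.95, n = 4) and in heart embryos for KAN2 (35.1 CPM ± 41.1, n = 4), where the SDs were about as large as the means and the crosses differed as given below. The ranges of KAN1 overlapped between all neighbours in its order of levels from torpedo through mature, bent and heart to globular, and those of KAN2 from heart through torpedo, mature and globular to bent.

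KAN1 overlaps 2 genes on the opposite strand, AT5G02555 over 435 bases (18.2% of its exons) and AT5G16550 over 25 bases (1.05%). The library kit does not mark strand, so reads there cannot be told apart. AT5G16550 had mean levels of 38.0 CPM in zygotes, 15.3 in heart, 53.5 in bent and 317 in mature embryos. KAN1 had 0.694, 5.89, 6.23 and 8.45 CPM at these stages. AT5G02555 had 0.0225 CPM in zygotes, 0.215 in heart and 0.313 in bent and mature embryos. The part of both genes in the KAN1 values was not tested.

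FIL rose at each of the first 3 steps. YAB3 and YAB5 had too few reads to be tested from zygote to octant. FIL was at 0.707, 0.211 and 0.194 CPM in the zygote libraries, at 2.08 and 2.86 (CT) and 3.26 and 3.88 (TC) in octants, at 39.3 and 24.2 (CT) and 5.1 and 7.36 (TC) in globular embryos, and at 110 and 109 (CT) and 137 and 201 (TC) in heart embryos. The ranges of these 4 stages did not overlap, so each stage stood above the one before in all libraries. FIL rose 7.76-fold to the octant (2.96 ± 0.61, adjusted p = 0.0114), by 2.34 ± 0.53 to the globular stage (adjusted p = 0.00541) and by 3.13 ± 0.58 to the heart stage (adjusted p = 0.00354). These calls kept their side of the threshold in every alternative run, with the block on replicate numbers and each library left out among them. The first of them rests on zygote libraries at 0.707 CPM or less, where FIL passed the read filter mainly through octants.

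Over both crosses FIL had means of 139 CPM ± 43.2 in heart, 117 ± 13.2 in torpedo and 145 ± 69.0 in bent embryos (n = 4 each), with overlapping ranges, and it was not called at these steps. The means join crosses that moved apart, since torpedo libraries were at 105 and 131 (CT) and 126 and 107 (TC) and bent libraries at 205 and 205 (CT) and 83.1 and 87.9 (TC). It fell to 118 and 86.8 (CT) and 11.1 and 9.02 CPM (TC) in mature embryos, by 1.92 on the log2 scale (SE 0.45, adjusted p = 0.00443), and mature values overlapped with bent values.

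YAB5, a member of the family that acts redundantly with FIL and YAB3 in leaves, came on between octant and globular. It had 0, 1, 1 and 5 reads in the octant libraries and 217, 53, 53 and 5 in the globular libraries, which was 0, 0.0665, 0.0725 and 0.422 CPM against 4.93, 5.53, 3.7 and 2.83. A count of 0 in octant CT replicate 1 allows up to 3 reads, or 0.343 CPM before TMM scaling. The globular libraries were all above the octant libraries, and the log2 fold change was 4.95 ± 0.59 (30.8-fold, adjusted p = 0.00014). It kept its call in every alternative, with values from 4.54 to 6.33 when a library was left out. From globular to heart YAB5 rose again by 1.33 ± 0.38 (adjusted p = 0.0331), from the values above to 10.9 and 5.79 (CT) and 18.7 and 13.5 CPM (TC). The groups did not overlap. That call was lost without globular CT replicate 1, globular TC replicate 1, globular TC replicate 2 or heart CT replicate 1 (adjusted p from 0.058 to 0.137).

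YAB3, the closest relative of FIL among the members, came a stage later than YAB5. It had at most 5 reads in any octant or globular library, or at most 0.313 CPM, and none in octant TC replicate 1 and globular TC replicate 2, where 3 reads would be 0.279 and 2.02 CPM before TMM scaling. Heart libraries held 2.98 and 0.848 (CT) and 13.3 and 12.8 CPM (TC), and torpedo libraries 60.7 and 62.2 (CT) and 20.2 and 32.8 CPM (TC). Heart values were all above globular values, and torpedo values all above heart values. The rise to the heart was 22.3-fold (4.48 ± 0.62, adjusted p = 0.000601) and held in every alternative. The rise to the torpedo was 2.85 ± 0.86 (adjusted p = 0.0452) and was lost with replicate numbers as a block and without heart CT replicate 1, heart CT replicate 2, heart TC replicate 2, torpedo CT replicate 1 or torpedo CT replicate 2 (adjusted p from 0.0543 to 0.174 over the left-out libraries). YAB3 also had 2.19 and 0.422 CPM in the ovules and 0.876, 0.465 and 0.194 CPM in the zygotes, which overlapped.

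YAB2, the fourth vegetative YABBY gene, was read from the zygote on, fell in globular embryos and rose again at the heart stage. It was at 3.59, 4.01 and 3.6 CPM in zygotes and at 3.12, 3.72, 3.19 and 5.4 in octants, then at 0.296, 0.417, 0.559 and 0 in globular embryos, where the libraries held 13, 4, 8 and 0 reads. Octant and zygote values overlapped, and every globular value was under every octant value. The fall to the globular stage was 9.67-fold (-3.27 ± 0.40, adjusted p = 0.000174). The rise to the heart, at 1.94 and 1.7 (CT) and 14.1 and 6.56 CPM (TC), was 3.31 ± 0.54 (adjusted p = 0.00162) with groups that did not overlap. Both calls held in every alternative, but each rests on the low globular reads, and YAB2 passed the read filter mainly through the other stage. From torpedo to mature the mean of YAB2 stayed between 11.3 and 14.2 CPM with overlapping ranges.

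The seed coat list fell over the same interval, from between 1960 and 2670 CPM in octants to between 344 and 569 CPM in globular embryos, and its part in the fall of YAB2 was not tested. The ovules held 1.31 and 2.11 CPM of YAB2, below every zygote and octant library, while their seed coat genes summed to 296 and 337 CPM.

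AS1 was read in every library, ovules included (11 and 11 CPM). It was at 20.1, 5.58 and 9.33 CPM in zygotes, 30.4, 29.3, 28.6 and 23.1 in octants, 20.2, 21.4, 21.5 and 14.7 in globular embryos, 52.9, 33.9, 103 and 178 in heart embryos and 138, 186, 118 and 147 in torpedo embryos. The octant values were above all zygote and globular values, and the heart values were above all globular values. The rise from zygote to octant was 1.27 ± 0.37 (adjusted p = 0.0327), and it was lost with replicate numbers as a block (adjusted p = 0.0643) and without octant CT replicate 1, octant TC replicate 1, octant TC replicate 2, zygote TC replicate 1 or zygote TC replicate 2 (adjusted p from 0.056 to 0.102). The rise from globular to heart was 1.91 ± 0.41 (adjusted p = 0.00833; without globular TC replicate 1 it was 1.71, adjusted p = 0.0508). AS1 then fell by 1.48 on the log2 scale from torpedo to bent (SE 0.31, adjusted p = 0.00198) and by 1.89 from bent to mature (SE 0.41, adjusted p = 0.00307), to between 36.0 and 59.4 CPM and then between 7.67 and 21.8 CPM, and neither pair of ranges overlapped.

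AS1 and ACT1, an actin gene on the opposite strand, share 330 exonic bases, 17.2% of the exons of AS1. Reads there cannot be told apart between the genes. ACT1 had mean levels of 4.88 CPM in zygotes, 15.7 in octants, 24.9 in heart and 45.6 in torpedo embryos, and its part in the AS1 values was not tested.

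AS2 was at 1.39, 1.93, 1.81 and 1.94 CPM in octants, at 1.8, 3.02, 7.76 and 1.13 in globular embryos and at 12, 10.7, 7.45 and 6.84 in torpedo embryos, its highest stage mean (9.25 CPM ± 2.5, n = 4). Its octant and globular values overlapped, and no step up to the bent stage passed the test. From bent to mature it fell by 2.06 on the log2 scale (SE 0.48, adjusted p = 0.00477), from 5.92, 8.28, 4.04 and 2.48 to 0.88, 1.52, 1.72 and 0.602 CPM, and the ranges did not overlap. The calls of AS1 at torpedo to bent and of FIL, AS1 and AS2 at bent to mature held in every alternative.

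Between unfertilized Col-0 ovules and zygotes none of the 7 members tested was called by edgeR, where 8.8% of 23292 genes were called. The nearest was KAN2, at 3.33 and 1.69 CPM in ovules and 0.404, 0.211 and 0.194 in zygotes, with a log2 fold change of -3.2 ± 0.9 (adjusted p = 0.064). Its groups did not overlap, and it was the 1 member with an unadjusted p under 0.05. DESeq2 called 1 member, and edgeR called 3 without zygote CT replicate 1.

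Levels were compared between genes per kilobase of exon. FIL had the highest CPM per kilobase of the 4 YABBY genes from the globular stage on, on stage means. The ratio of FIL to YAB3 was 138 in globular embryos, 24.0 in heart, 3.43 in torpedo, 5.17 in bent and 2.44 in mature embryos. FIL was higher in all 4 libraries of each of these stages except the mature one, where it was higher in 3 of 4. The globular ratio is uncertain, because YAB3 had at most 5 reads in any globular library and FIL differed between the crosses there. In zygotes the order was another, with YAB2 at 3.07 CPM per kilobase ± 0.202 (n = 3) and FIL at 0.303 ± 0.238, a ratio of FIL to YAB2 of 0.0987.

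KAN2 exceeded KAN1 per kilobase in all 4 libraries of every stage from globular on, by 2.97 times in globular embryos, 5.54 in heart and 1.58 in torpedo, while octants were split at 2 of 4 libraries. AS1 exceeded AS2 in every library, by 7.61 to 29.4 times on stage means. These are levels of different genes in the same libraries and carry no test.

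Over the 14 group means of log2 CPM, the highest correlation between members was that of FIL with YAB5 (Pearson r = 0.918), followed by KAN1 with KAN2 (0.878) and KAN2 with FIL (0.874). YAB2 was closest to YAB3 (0.796) and far from KAN2 (0.173), and AS1 and AS2 had 0.816. The 14 points share stages and libraries, so these are descriptions without a test. Among 15683 nuclear genes whose log2 CPM averaged 1 or more, the genes most like each member over the same 14 means were BEH3 (0.976) and DRB3 (0.965) for YAB5, OLEO3 (0.961) and AT4G03140 (0.949) for YAB3, and AT3G13670 (0.961) and BAK1 (0.955) for KAN1. They were AT2G25790 (0.955) and AT1G31310 (0.954) for FIL, AT3G23700 (0.946) and AT5G24260 (0.92) for AS1, and AT1G04425 (0.926) and HDA14 (0.922) for AS2. The nearest genes to KAN2 were SK21 (0.917) and AT3G13672 (0.908), and those to YAB2 were AT2G01460 (0.904) and AT4G19380 (0.89). These places depend on the measure. By Spearman rank correlation SK21 had rank 52, AT3G13672 rank 220 and AT4G19380 rank 131. Over the 27 libraries AT4G03140 had rank 60 for YAB3 and AT5G24260 rank 39 for AS1. DRB3 had rank 1 for YAB5 by both.

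Of 27 other genes of the polarity pathway, 10 of 25 tested rose and 3 fell between octant and globular, where the median of the 25 was 0.59 on the log2 scale. Over all genes 36.9% were called in either direction at this step, and the median was 0.02. ETT, an auxin response factor of the abaxial side, rose by 2.48 ± 0.36 (adjusted p = 0.000422), and STM, KNAT2 and KNAT6, which are class I KNOX genes, rose with it. Between globular and heart 4 of 24 rose and 2 fell, where 6.49% of all genes rose and 1968 of 18932 fell. STM, the class I KNOX gene that maintains the shoot meristem, rose by 3.54 ± 0.48 (adjusted p = 0.000521), and PRS, a WOX gene of the blade margin, rose by 3.8. Between zygote and octant 6 of 22 rose and 1 fell, where 16.4% of all genes rose and 3687 of 20623 fell. Between heart and torpedo 5 of 26 rose and 5 fell, where 10.1% of all genes rose and 1878 of 18709 fell. Between torpedo and bent 2 of 26 rose and 8 fell, where 4131 of 18795 genes rose and 22.4% fell. Between bent and mature 3 of 24 rose and 12 fell, where 4471 of 17692 genes rose and 29.2% fell.

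Among the other KANADI and YABBY genes, INO and KAN4 had their highest stage mean in ovules. INO, a YABBY gene of the outer ovule integument, was at 58.1 CPM ± 23.6 in ovules (n = 2), 33.2 CPM ± 8.62 in zygotes, 17.4 ± 4.33 in octants and 3.07 ± 1.91 in globular embryos. It fell between octant and globular by 2.28 on the log2 scale (SE 0.35, adjusted p = 0.00059). In the authors' deposited table INO was 98.8% (CT) and 99.9% (TC) maternal in zygotes and 99.9% and 99.6% in octants. KAN4, a KANADI gene that acts in ovule integuments, was at 46.5 CPM ± 8.7 in ovules and 4.98 ± 3.42 in zygotes, where it fell by 3.28 on the log2 scale (SE 0.70, adjusted p = 0.037).

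**Figure D2:**
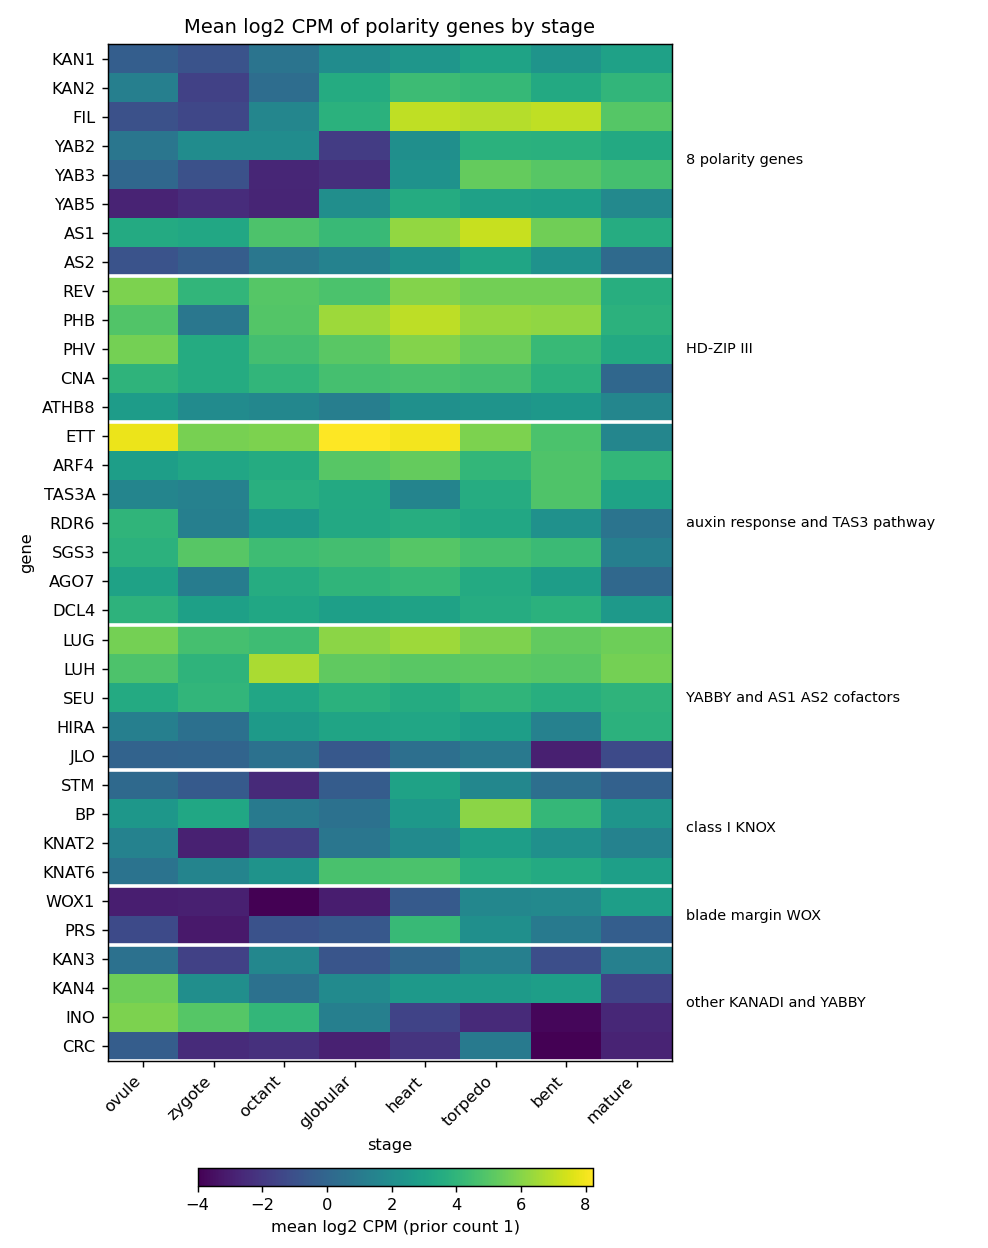
Mean log2 CPM (colour, prior count 1) by stage (columns) of the 8 polarity genes, at the top, and of the other 27 genes of the pathway grouped by list. KAN1, KAN2, FIL and YAB5 brighten between octant and globular and YAB3 at the heart stage, YAB2 is darkest at the globular stage, and INO and KAN4 are brightest in ovules.

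The reciprocal crosses differed in the level of members at 6 of 7 stages, and the direction was not the same at all. At the heart stage 5 of 8 members were higher in TC (KAN2, YAB2, YAB3, AS1 and AS2), where 4.94% of 25062 genes were higher. YAB2 was at 1.94 and 1.7 CPM in CT and 14.1 and 6.56 in TC, a log2 fold change (TC minus CT) of 2.54 ± 0.43 (n = 2 and 2, adjusted p = 0.000973). YAB3 was at 2.98 and 0.848 against 13.3 and 12.8 (2.74 ± 0.50, adjusted p = 0.00199). KAN2 was at 11.5 and 6.64 against 95.4 and 26.7 (2.79 ± 0.55, adjusted p = 0.00308). In these genes every TC library was above both CT libraries.

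AS1 was at 52.9 and 33.9 CPM in CT heart embryos and 103 and 178 in TC, a difference of 1.73 ± 0.39 (adjusted p = 0.00716), and AS2 was at 3.4 and 1.7 against 21.2 and 3.86 (2.32 ± 0.59, adjusted p = 0.016). The groups did not overlap in either gene. KAN1, FIL and YAB5 did not pass the test, with 1.04 (adjusted p = 0.134), 0.67 (0.306) and 0.99 (0.18). Single libraries carried part of these values. Without heart TC replicate 1 AS2 came to 0.60 (adjusted p = 0.692) and KAN2 to 1.59 (0.136). Without heart CT replicate 2 the adjusted p was 0.0873 for KAN2, 0.0661 for YAB3, 0.141 for AS1 and 0.188 for AS2, without heart TC replicate 2 AS1 came to 1.29 (0.0794), and without heart CT replicate 1 AS2 had 0.0605. Fitted on the heart libraries only, AS2 had an adjusted p of 0.078. YAB2 kept its call in every alternative. Heart TC replicate 2 also carried seed storage transcripts, as genes of late embryos, at 0.327% of its reads, beside 0.00365% in heart CT replicate 2 and 0.00451% in heart TC replicate 1, and their part in the result was not tested.

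From the torpedo stage on, the members that differed were lower in TC. KAN1 was lower in torpedo embryos (1 of 8 members, where 7.62% of genes were lower), at 11.7 and 23.3 CPM in CT and 3.84 and 4.88 in TC (-1.99 ± 0.43, adjusted p = 0.00384). The crosses did not overlap. Without torpedo CT replicate 2 it was -1.35 (adjusted p = 0.0737) and without torpedo TC replicate 1 -1.85 (0.0802).

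In bent embryos KAN1 and FIL were lower in TC, 2 of 8 members where 15.8% of genes were called in either direction. KAN1 was at 9.7 and 10.1 CPM against 2.64 and 2.48 (-1.91 ± 0.53, adjusted p = 0.0159), and FIL at 205 and 205 against 83.1 and 87.9 (-1.25 ± 0.40, adjusted p = 0.0342), without overlap. The KAN1 call was lost without bent TC replicate 1 (adjusted p = 0.281), and that of FIL without any 1 of the 4 bent libraries (0.0879 to 0.205), with the bent libraries only (0.0836) and with replicate numbers as a block (0.079). The median over all genes was -0.34 at this stage, and the calls over all genes were 1449 higher and 2506 lower, where scaling by relative log expression gave a median of -0.20 and 1995 higher and 2074 lower. Under that scaling KAN1 kept its call and FIL did not, and without composition scaling both were lost (-1.19 and -0.47, adjusted p = 0.158 and 0.449), where the median was 0.29 with 4593 higher and 651 lower. Bent TC replicate 2 held between 2 and 71 reads of each member.

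In mature embryos FIL, YAB3 and YAB5 were lower in TC, 3 of 8 members where 8.67% of genes were lower. FIL was at 118 and 86.8 CPM in CT against 11.1 and 9.02 in TC (-3.32 ± 0.44, adjusted p = 2.36e-05). YAB5 was at 16 and 8.63 against 1.34 and 0.602 (-3.69 ± 0.61, adjusted p = 0.000229). YAB3 was at 46.3 and 46.4 against 13.4 and 12.2 (-1.83 ± 0.48, adjusted p = 0.0111). Both CT libraries were above both TC libraries in all of them. The calls of FIL and YAB5 held in every alternative, without composition scaling included (-2.47 and -2.80, adjusted p = 0.00017 and 0.00178), and that of YAB3 was lost without mature TC replicate 1 (adjusted p = 0.0832) or mature TC replicate 2 (0.113), and without composition scaling (-1.02, adjusted p = 0.128).

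Seed storage transcripts moved with the cross at these stages. They took 39.0% and 47.8% of reads in bent CT libraries against 6.92% and 9.41% in bent TC, and 61.4% and 58.8% in mature CT against 18.7% and 18.8% in mature TC. Their part in the results was not tested. Without TMM scaling FIL was at 34.9 and 35.1 CPM in mature CT and 7.28 and 5.38 in mature TC, YAB5 at 4.74 and 3.49 against 0.879 and 0.358, and YAB3 at 13.7 and 18.8 against 8.79 and 7.26. The direction was the same on this scale and the crosses did not overlap, although the median of all genes moved to 0.80, with 6115 higher and 678 lower against 1575 and 2172.

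At the earlier stages FIL was lower in TC globular embryos, at 39.3 and 24.2 against 5.1 and 7.36 CPM (-2.4 ± 0.45, adjusted p = 0.00707), 1 of 8 members where 0.367% of genes were lower. The crosses did not overlap. The call was lost when only the globular libraries were fitted (adjusted p = 0.0649) and without globular CT replicate 1 (0.127) or globular TC replicate 1 (0.23). In octants none of the 8 members was called by edgeR, where 3.48% of genes were, 0 had an unadjusted p under 0.05, and DESeq2 called 0. Such tests with 2 libraries per cross can miss differences, as given with the processing. The lone CT zygote library held seed storage transcripts at 0.132% of its reads, beside 0.00539% and 0.00673% in the TC zygote libraries. Their part in the zygote results that follow was not tested. In zygotes, with 1 CT library, AS1, FIL and KAN1 were lower in TC (3 of 8, where 22.6% of genes were lower), with log2 fold changes of -1.40, -1.71 and -2.37, and the lone library is assumed to vary like the other groups. Fitted on the zygote libraries only, none of them was called (adjusted p = 0.0531 for AS1, 0.237 for FIL and 0.0513 for KAN1). The FIL call was also lost with DESeq2 (0.073), relative log expression scaling (0.054), no filter (0.0563) and replicate numbers as a block (0.149), and without zygote TC replicate 1 (0.164) or zygote TC replicate 2 (0.0936). That of AS1 was also lost without zygote TC replicate 1 (0.127).

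**Figure D3:**
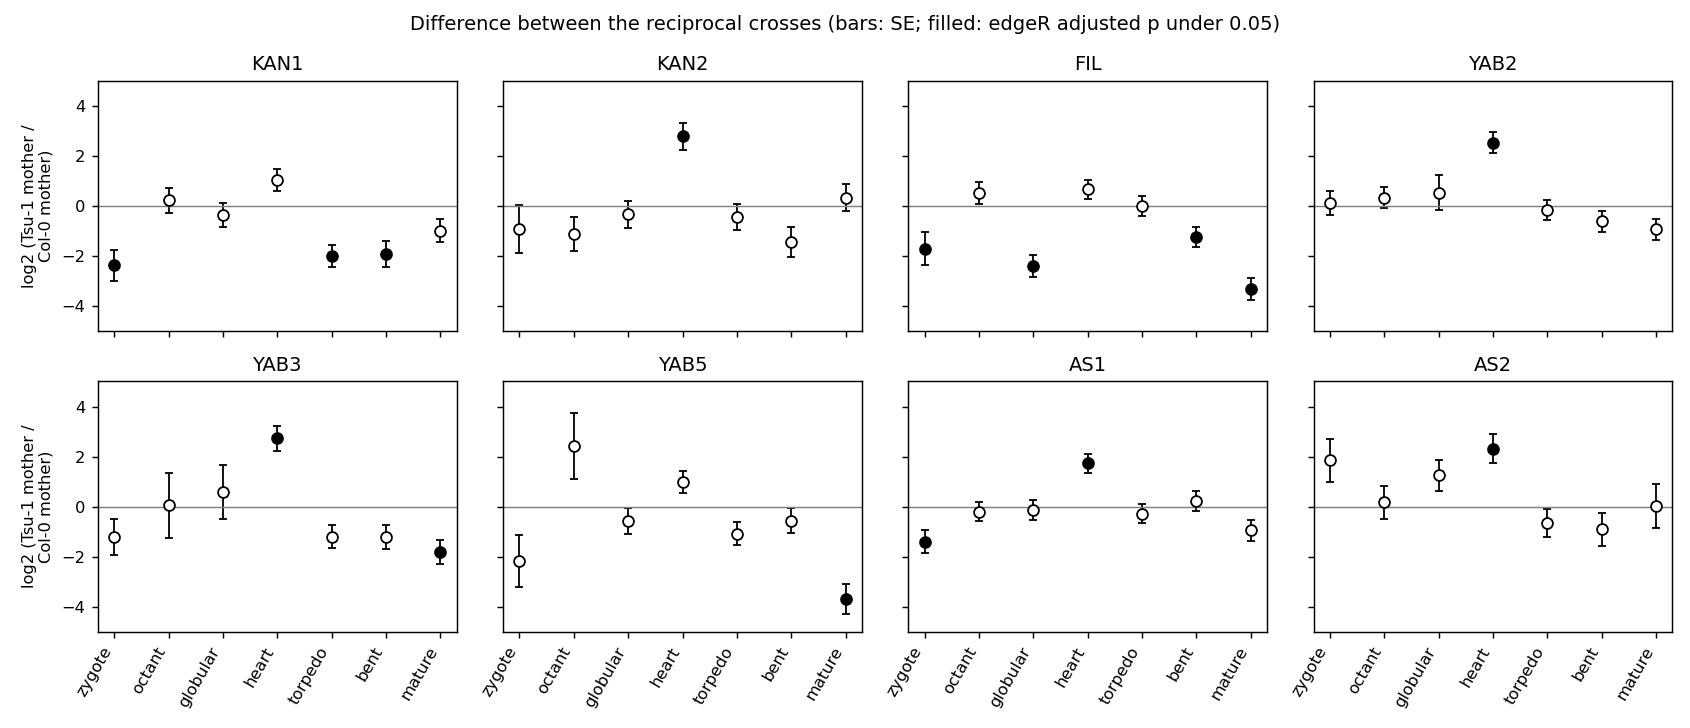
Log2 fold change between the crosses (vertical, TC over CT) at each stage (horizontal) for the 8 genes, with bars of 1 SE and filled points where edgeR's adjusted p is under 0.05. At the heart stage the estimates of all 8 genes are above 0, and at the mature stage those of FIL and YAB5 are -3.32 and -3.69.

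The step from heart to torpedo differed between the crosses in 6 of the 8 members tested (KAN1, KAN2, YAB2, YAB3, YAB5 and AS1), where 9.22% of 19479 genes differed. YAB3 went from 2.98 and 0.848 CPM to 60.7 and 62.2 in CT and from 13.3 and 12.8 to 20.2 and 32.8 in TC, an interaction (TC minus CT) of -3.98 ± 0.64, adjusted p = 0.014. KAN2 went from 11.5 and 6.64 to 16.7 and 26 in CT and from 95.4 and 26.7 to 15.9 and 15.4 in TC (-3.29 ± 0.78, adjusted p = 0.0353). For YAB3 both crosses ended above their heart values, and for KAN2 CT libraries ended above and TC libraries below theirs. Heart TC replicate 2 carried seed storage transcripts at 0.327% of its reads. The torpedo libraries had 0.21% to 0.297% and the other heart libraries 0.00365% to 0.00474%. The part of this in the interactions was not tested. These calls leaned on single libraries, and the count was 0 without heart CT replicate 2 or torpedo TC replicate 1, 1 without heart CT replicate 1 or torpedo TC replicate 2, 2 without torpedo CT replicate 2 and 3 without heart TC replicate 1. Fewer members differed at the other steps, with 2 between zygote and octant (KAN1 and FIL, where 35.9% of genes differed), 1 between octant and globular (FIL, 1.88%), 1 between bent and mature (FIL, 3.52%) and 0 elsewhere by edgeR. Between globular and heart 0.146% of genes were called and between torpedo and bent 0.0359%, 4 and 1 members had an unadjusted p under 0.05 there, and DESeq2 called 2 members at the former.

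Of the other 27 polarity genes, 2 were higher in TC heart embryos and none lower (KAN3 by 2.36 and LUH by 2.12), where 4.94% of all genes were higher. In torpedo embryos none was higher and 3 were lower, where 7.62% of all genes were lower. In bent embryos none was higher and 4 were lower, where 15.8% were called in either direction. In mature embryos none was higher and 3 were lower, where 8.67% were lower. KAN3 is a KANADI gene and LUH a LEUNIG-type co-repressor. In globular embryos none of the 27 was called, where 96 of 25062 genes were higher and 92 lower. In octants 1 was higher and none lower, where 3.48% of all genes were called in either direction. In zygotes, with 1 CT library, the median difference of the 27 was 0.02 on the log2 scale, beside -0.08 over all genes.

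Parental contributions were read from the authors' deposited table, which gives 1 maternal fraction per gene, stage and cross, pooled over libraries, with an adjusted p-value and the number of variant reads behind it. Intervals are Wilson 95% intervals on those reads and cover counting error only. A maternal call needed at least 10 variant reads and an adjusted p under 0.05 in both crosses. AS1 was the one member with enough reads in all 14 groups (8623 variant reads in all), before KAN2 (1172, 11 groups), YAB3 (846, 7), YAB5 (152, 6) and KAN1 (84, 2).

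In the authors' deposited table AS1 was maternal in zygotes, at 73.0% in CT (332.5 variant reads, interval 68 to 77.5, adjusted p = 0.0357) and 84.2% in TC (157 reads, 77.7 to 89.1, adjusted p = 5.18e-06). It was 74.9% maternal in CT octants (452 reads, adjusted p = 0.000934) and 72.1% in TC octants (401.5 reads, adjusted p = 0.00728). AS1 was thus the 1 member of 1 with enough reads in both crosses that was called at each of these stages, where 41.1% of 7547 genes were called maternal in zygotes and 26.9% of 8916 in octants. The median maternal percentages over all genes were 80.9% and 88.5% in zygotes and 78.6% and 69.6% in octants, and AS1 was below them in 3 of these 4 groups. ACT1, which shares exonic bases with AS1, was 70.4% and 74.2% maternal in zygotes and 68.9% and 65.1% in octants in the authors' deposited table, and the reads they share cannot be told apart. The seed coat list was highest at the same 2 stages, and its part in the maternal share was not tested.

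From the globular stage on AS1 was not called, with 49.1% (CT) and 52.3% (TC) in globular embryos, in the authors' deposited table. The mean over the 4 zygote and octant values was 76.1% and that over the 8 heart to mature values 52.6%, a difference of 23.4 points (exact two-sided permutation test, 1 of 495 splits, p = 0.00202, adjusted over 9125 genes 0.00898). Over all genes 53.5% were called higher early, with a median difference of 24.9 points, slightly above that of AS1. The test takes the 4 and 8 pooled values as exchangeable, and 1 of 495 splits is the smallest p-value it allows. Zygotes and octants were also the stages with the highest maternal medians over all genes. The p-value is thus a description and shows nothing particular to AS1. With globular values counted as early the difference was 15 points (adjusted p = 0.0643).

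In heart and torpedo embryos AS1 leaned to the Tsu-1 allele in both crosses, in the authors' deposited table. It was 41.3% maternal in CT heart (1025 reads, 38.3 to 44.3) and 58.6% in TC heart (1096 reads, 55.7 to 61.5), then 43.8% (2363 reads) and 61.8% (1155.5 reads) in torpedo. The counting intervals lay under 50% in CT and over 50% in TC, but the authors' adjusted p was 0.967 and 0.848 in heart embryos and 1 and 0.765 in torpedo embryos. As a mean of both crosses, the Col-0 share of AS1 was 45.8% ± 3.78 (SD over 7 stages) and was under 50% at 6 of 7 stages (exact permutation test, p = 0.0312, adjusted 0.18). By this test 0 of 10340 genes passed after adjustment, and 2011 had an unadjusted p under 0.05. The median Col-0 share over all genes was 50.7%. ACT1, the overlapping gene, had 43.4% and 56.7% in heart and 43.9% and 59.6% in torpedo in the authors' deposited table, close to the values of AS1, and the reads they share cannot be told apart.

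The mean of KAN2 lay on the other side of 50% and did not pass this test. As a mean of both crosses, its Col-0 share was 59.2% ± 8.38 over 5 stages and at no stage under 50% (exact permutation test, p = 0.0625, the smallest 5 stages allow, adjusted 0.244). The median over all genes was 50.7%. By single cross the Col-0 share of KAN2 was under 50% in globular CT (45.5%) and heart TC (49.4%). In the authors' deposited table KAN2 was 45.5% (63 reads) and 41.5% maternal (31) in globular CT and TC, 55.7% (72) and 50.6% (100) in heart, 60.6% (368) and 47.9% (110) in torpedo, 61.3% (227) and 17.6% (23) in bent and 70.0% (105) and 43.6% (60) in mature embryos. None of these passed the authors' test. In CT octants KAN2 was 11.1% maternal on 11 variant reads (2.28 to 40.1, adjusted p = 0.0212 in the authors' deposited table), where 0.938% of genes were called paternal in that group. The TC octants had 1 variant read, so the call has no reciprocal check.

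Intronic reads of KAN2 had at least 10 variant reads in 5 groups of the authors' deposited table. Their Col-0 shares were 60.4% in TC globular, 85.5% in TC heart, 70.1% in CT torpedo, 80.3% in TC torpedo and 77.6% in CT bent embryos, all above 50%, on 11 to 29 reads each and with no call by the authors' test. No intronic median over all genes is given beside them. Whether intronic reads lean to Col-0 in general was not tested.

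YAB3 was near equal in torpedo embryos in the authors' deposited table, at 45.3% maternal in CT (406 reads) and 46.0% in TC (102), and it was at 68.5% (10 reads) and 43.7% (21) in heart and 60.6% (204) and 38.2% (30) in bent embryos. YAB5 had 53.6% on 24 reads in CT globular, 60.9% (40) and 28.2% (11) in torpedo and 30.1% (28) and 56.8% (14) in bent embryos. KAN1 had 52.8% on 12 reads in CT heart and 51.3% on 29 in CT torpedo. FIL and YAB2 reached 10 intronic variant reads in 1 group each of the authors' deposited table, FIL with 54.8% in CT bent (13 reads) and YAB2 with 28.1% in CT torpedo (11 reads). None of these values of YAB3, YAB5, KAN1, FIL and YAB2 passed the authors' test, and the interval of YAB2, for one, ran from 10.2% to 57.3%.

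**Figure D4:**
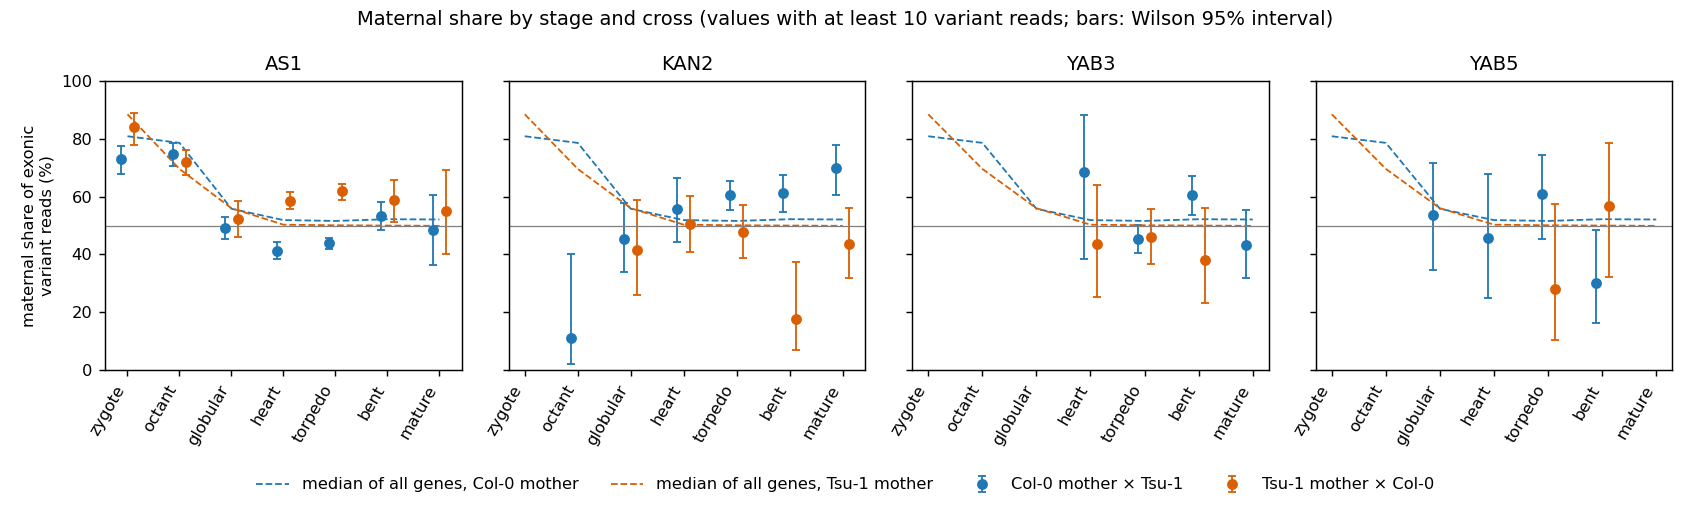
Maternal share of exonic variant reads in percent (vertical) by stage (horizontal) for AS1, KAN2, YAB3 and YAB5 from the authors' deposited table, coloured by cross, for values with at least 10 variant reads. Bars are Wilson 95% intervals and dashed lines are the medians of all genes. AS1 lies between 72.1% and 84.2% in zygotes and octants and between 41.3% and 61.8% later.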

How the data were processed

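RNA from 27 embryo and 2 ovule libraries was amplified with an antisense RNA kit and made into TruSeq libraries that keep no strand, per the labels' protocols. The CT zygote joins 3 technical libraries and globular CT replicate 1 joins 2, each counted as 1 sample. The submitters' processing notes name TAIR10, STAR 2.7.0d, featureCounts 1.6.0 and edgeR, without their roles.

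The authors deposited total reads per gene as estimated counts, not normalized. Between libraries 8.68% to 22.4% of values had a fractional part (among the members, only in KAN1 and AS1), and these were rounded for the tests. For parental contributions the authors deposited, per stage and cross, exonic and intronic maternal fractions with adjusted p-values and variant read counts, pooled over libraries. The deposited fractions are drawn towards 0.5 at low counts, and how the p-values were made is not given in the sources used here.

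Counts were filtered (filterByExpr), TMM-scaled and tested with edgeR 4.0.16 in R 4.3.3, two-sided, with Benjamini-Hochberg adjustment over all genes. Each stage step had a fit of its own with cross as covariate, reciprocal crosses in 1 model of all groups, and the difference between crosses in a stage step as an interaction term. Parental values used a minimum of 10 variant reads. Exact permutation tests of parental shares were designed with adjustment over the members and were adjusted over all genes instead. Alternatives were DESeq2 1.42.0, scaling by relative log expression, no filter, a group-means model, libraries of a stage only, replicate numbers as a block and each library left out; no composition scaling was chosen after seeing the data. Scripts were tested on simulated data. Of 200 genes changed 4-fold, 96.5% were recovered from heart to torpedo and 64% between the crosses at torpedo. A cross difference that was not called may thus have been missed. Gene structures and promoter sequences came from RefSeq's TAIR10.1. All 8 members were named, and like genes were the 2 with the highest Pearson correlation. Members and lists were chosen with earlier results of these data known.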

Additional observations from a re-analysis of the deposited data

Results flagged for a closer look

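Stage steps that differed between the crosses are listed here as interactions (TC minus CT, log2 scale, edgeR quasi-likelihood test with adjusted p over all genes). The CT zygote library carried seed storage transcripts at 0.132% of its reads, and their part in the zygote to octant interactions was not tested. From zygote to octant the interaction was 2.63 for KAN1 (adjusted p = 0.0174) and 2.28 for FIL (0.0257), with a single CT zygote library. Both were lost with DESeq2 and without octant CT replicate 1, octant CT replicate 2 or octant TC replicate 2, and FIL also without octant TC replicate 1 (adjusted p from 0.0512 to 0.101). FIL had -2.92 from octant to globular (0.0201), and it was lost without globular TC replicate 1 or any 1 of the octant libraries (0.0781 to 0.114). FIL had -2.16 from bent to mature (0.0349), and it was lost without any 1 of the bent libraries, mature TC replicate 1 or mature TC replicate 2 (0.059 to 0.235), and without composition scaling (0.0521).

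From heart to torpedo the interaction was -3.98 for YAB3 (adjusted p = 0.014), -3.29 for KAN2 (0.0353), -3.09 for KAN1 (0.0274), -2.75 for YAB2 (0.0218), -2.12 for YAB5 (0.0337) and -2.06 for AS1 (0.0408), all with edgeR. YAB3 lost its call without heart CT replicate 2 (0.07) or torpedo TC replicate 1 (0.0793), and YAB2 without heart CT replicate 1, heart CT replicate 2, torpedo TC replicate 1 or torpedo TC replicate 2 (0.0796 to 0.109). KAN1, KAN2, YAB5 and AS1 each lost theirs without any 1 of 6 of the 8 libraries. Heart TC replicate 2 carried seed storage transcripts at 0.327% of its reads, above the torpedo libraries (0.21% to 0.297%). Their part in the heart to torpedo interactions was not tested.

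Single libraries stood apart from the others of their stage in 2 places, by the gap to the nearest library over the range of the 4 libraries, both in log2 CPM. KAN2 was at 26.0 CPM in torpedo CT replicate 2, where the other torpedo libraries were between 15.4 and 16.7 CPM. AS1 was at 14.7 CPM in globular TC replicate 2, where the others were between 20.2 and 21.5 CPM, and on the CPM scale itself it would not have passed the limit. Chance alone places about 1 in 20 groups past this limit.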

How the results depend on the processing

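None of the member changes past the threshold, and none of the parental shares tested, changed direction under an alternative run for it. From octant to globular 5 members (6 with no filter) were called in the other tools, scalings and models, and from globular to heart and in heart and mature crosses the counts stayed within 1.5 times outside left-out libraries. Counts of called members moved as follows. DESeq2 gave 2 from heart to torpedo (from 1), 2 from torpedo to bent (1), 1 from ovule to zygote (0), and interactions of 0 for zygote to octant (2), 2 for globular to heart (0) and 2 for bent to mature (1). Relative log expression scaling gave 2 from torpedo to bent, 1 for bent crosses (2) and 2 for the bent to mature interaction. No composition scaling, chosen after seeing the data, gave 6 from torpedo to bent, 6 from bent to mature (3), 1 from ovule to zygote, 0 for bent crosses and 0 for the bent to mature interaction. A model of all groups gave 6 for zygote to octant (3) and 3 for heart to torpedo. Libraries of the stage alone gave 0 for zygote crosses (3), 0 for globular (1), 3 for torpedo (1) and 1 for bent. No filter gave 2 from heart to torpedo, 2 for torpedo crosses, 4 for bent crosses and interactions of 2 for globular to heart and 2 for bent to mature. At an adjusted p under 0.01 no member was maternal in zygotes (0 from 1), and with globular values counted as early the AS1 difference was 15 points.

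Replicate numbers were not taken to pair the samples, since the labels name no shared source and correlations of same-numbered libraries ran from -0.32 to 0.69. They were over 0.1 in one cross of globular to heart (0.42), heart to torpedo (0.29), torpedo to bent (0.69) and bent to mature (0.42), but not in the other. With the numbers as a replicate block the counts were 1 for zygote to octant, 0 for heart to torpedo and 1 for bent crosses, and 28 of 33 member calls stayed past the threshold.

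With single libraries left out, the counts ran from 1 to 4 for zygote to octant, 5 to 6 for octant to globular, 3 to 5 for globular to heart, 0 to 3 for heart to torpedo, 1 to 3 for torpedo to bent, 3 to 4 for bent to mature and 0 to 3 for ovule to zygote. For the crosses they ran from 1 to 2 in zygotes, 0 to 0 in octants, 0 to 1 in globular, 1 to 4 in heart, 0 to 1 in torpedo, 0 to 1 in bent and 2 to 3 in mature embryos. For the interactions they ran from 0 to 4, 0 to 1, 0 to 1, 0 to 6, 0 to 0 and 0 to 2 from the first step to the last. Depth limits bent TC replicate 2 and globular TC replicate 2 most.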
